A study of Mus musculus with 48 samples.

Results

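DNA replication genes were followed across 6 sorted populations of phagocytes from imiquimod-treated and untreated mouse ear skin. The group holds 43 genes of S phase, taken by name from the probe sets of the deposited expression table that carry 1 gene symbol, out of 15591 genes tested and 35556 probe sets in all. Where a gene had several probe sets, the brightest over the 48 arrays stood for it. This was so for Tk1, Pcna and Slbp. Orc1, a subunit of the origin recognition complex, did not pass the filter on dim probe sets and is given as levels only, so 42 of the 43 genes were tested.

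The study sorted phagocytes from ear skin of mice aged 8 to 11 weeks and measured their RNA on Affymetrix mouse gene arrays, with 3 arrays in each of 16 groups. Treated mice received cream with 5% imiquimod, a Toll-like receptor 7 agonist, at 7 mg of the drug per ear side every day of a 14-day course, and cells were taken after 5 or 11 days. Epidermal Langerhans cells were sorted as CD11b+MHCII+CD24+ after 5 days of imiquimod, after 11 days and untreated, and dermal CD11b+ conventional dendritic cells (CD11b DC) as CD64-Ly-6C-MHCII+CD24- at the same 3 stages. Dermal MHCIIlow macrophages (CD64hiCCR2lowLy-6Clow) and Ly-6Chigh monocyte-derived dendritic cells (moDC; CD64lowCCR2+MHCII+) were also taken at 3 stages. MHCIIhi macrophages were taken at day 11 and untreated, and monocytes (CD64lowCCR2+Ly-6ChiMHCIIlow) at day 5 and untreated. Whether the 3 arrays of a group stand for different animals is not stated, nor is the strain given in the sources used here. The p-values therefore reflect only how far these arrays spread, which may be technical. From 1 to 20 ng of RNA was amplified in 2 rounds per sample.

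A cell copies its genome once per division, and the proteins that do so are made mostly as it enters S phase. The origin recognition complex, Cdc6 and Cdt1 load the ring of Mcm proteins on DNA, kinases with Cdc45 and the GINS complex turn the ring into a working helicase, and polymerases, sliding clamp and ligase then lay and join the new strands. E2F transcription factors switch on many of these genes. Langerhans cells and some dermal macrophages are known to renew themselves by division within the skin, while monocytes arrive from blood.

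The promoters of these genes are shown first because E2F sites are a known feature that choosing genes by name did not use. RefSeq windows of 300 bases (250 before to 50 after a start, build GRCm38.p6) matched 33 of the 43 genes with 38 windows. The start of a window need not be the outermost start of its gene. The genes without one were Mcm4, Gins1, Gins2, Gins4, Prim2, Pole, Rfc2, Dscc1, Ccne2 and Atad2. The 4 E2F words TTTCCCGC, TTTCGCGC, TTTGCCGC and TTTGGCGC were searched on both strands. At least 1 stood in 12 of the 38 windows (31.6%), against 744 of 32851 windows of all genes (2.26%). Within the bases before the start, 8 windows (21.1%) held a word, against 1.86% of all windows. The CCAAT box, also searched on both strands, stood in 55.3% of the members' windows and in 37.4% of all windows. A match is a description of these letters and does not show binding. Stretches around the words are printed for genes that were called on day 5 of imiquimod in Langerhans cells (Mcm5), in MHCIIlow macrophages (Rfc3) or in both (Cdc6, Mcm6, Mcm7, Uhrf1), and for Pola1, which was called in neither. Each reads 5′ to 3′ on the gene's strand, with the words in capitals. Orc1, which was not tested for expression, also held a word 27 bases before the start of its window. That word lies inside the annotated gene, and its stretch is not printed.
Cdc6 (helicase loader, chr11:98907973-98908060, plus strand): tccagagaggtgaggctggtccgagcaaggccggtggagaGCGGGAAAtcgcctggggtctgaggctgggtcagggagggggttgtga
Mcm5 (helicase ring, chr8:75109316-75109407, plus strand): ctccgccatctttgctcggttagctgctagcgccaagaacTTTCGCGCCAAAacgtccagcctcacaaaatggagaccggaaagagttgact
Mcm6 (helicase ring, chr1:128359706-128359855, minus strand): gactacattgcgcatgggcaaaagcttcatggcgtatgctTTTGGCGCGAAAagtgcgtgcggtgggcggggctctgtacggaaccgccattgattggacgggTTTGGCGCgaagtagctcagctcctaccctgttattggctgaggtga
Mcm7 (helicase ring, chr5:138172001-138172088, minus strand): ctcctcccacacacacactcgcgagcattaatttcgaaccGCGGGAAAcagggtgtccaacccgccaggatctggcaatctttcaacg
Rfc3 (clamp loader, chr5:151651209-151651258, minus strand): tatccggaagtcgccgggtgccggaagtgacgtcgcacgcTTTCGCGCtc
Uhrf1 (reader of newly copied methylated DNA, chr17:56304088-56304175, plus strand): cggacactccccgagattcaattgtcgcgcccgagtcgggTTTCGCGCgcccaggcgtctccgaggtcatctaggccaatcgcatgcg
Pola1 (DNA polymerase alpha, chrX:93632246-93632333, minus strand): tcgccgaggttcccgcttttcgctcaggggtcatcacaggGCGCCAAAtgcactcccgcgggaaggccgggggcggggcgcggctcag
In Mcm5 a pair of words on opposite strands overlaps, and Mcm6 carries 1 such pair and a further word closer to the start. The last word printed lies 10 bases before the window's start in Rfc3 and 185 bases before it in Uhrf1. The stretches of Cdc6, Mcm7, Uhrf1 and Pola1 lie inside the annotated genes, past their outermost starts. The windows of Rrm1, Rrm2, Tk1 and Tyms held none of the 4 words.

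Over the 16 groups, the mean of the replication genes was highest in day 5 Langerhans cells, followed by day 5 MHCIIlow macrophages, and lowest in monocytes. Levels are the deposited log2 values, which depend on each probe set and so are compared within a gene and not between genes. Day 5 Langerhans cells had the highest group mean for 24 of the 42 tested genes and day 5 MHCIIlow macrophages for 9. Untreated monocytes had the lowest mean for 15 genes and day 5 monocytes for 10. The mean over the 42 genes was 5.74 ± 0.16 in untreated, 6.50 ± 0.10 in day 5 and 6.19 ± 0.12 in day 11 Langerhans cells (SD, n = 3 each). In MHCIIlow macrophages it was 5.38 ± 0.03 untreated, 6.24 ± 0.11 on day 5 and 5.66 ± 0.07 on day 11. CD11b DC had 5.89 ± 0.11 untreated, 6.02 ± 0.17 on day 5 and 6.07 ± 0.07 on day 11, and moDC had 5.51 ± 0.12, 5.42 ± 0.05 and 5.46 ± 0.12 at the same stages. Day 5 monocytes were at 5.17 ± 0.05, against 5.05 ± 0.10 in untreated monocytes. In sorted bulk samples, fewer or more cells of a dividing kind and less or more RNA per cell cannot be told apart.

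**Figure D1:**
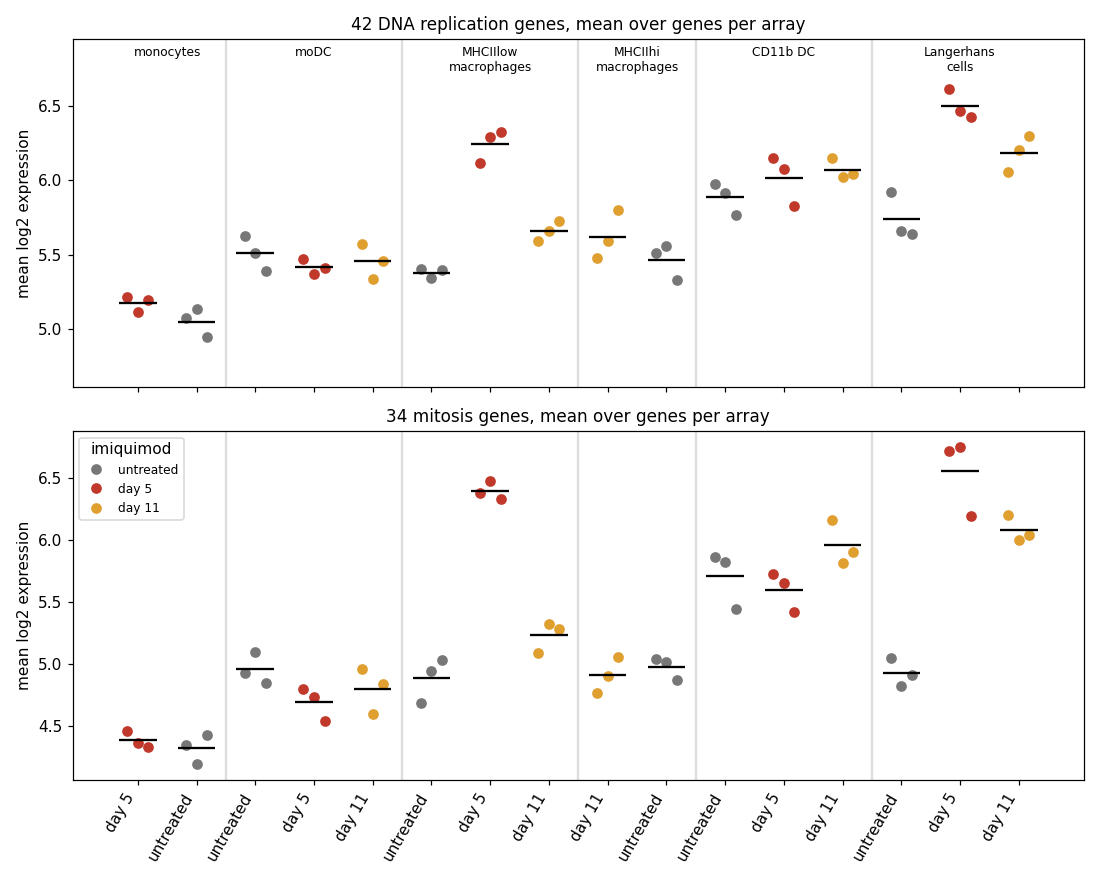
Mean log2 expression over genes (vertical axes) in each of the 16 groups (horizontal axis). The upper panel takes the 42 tested replication genes and the lower panel 34 mitosis genes, each point is 1 array and each bar is the mean of 3. In the upper panel the day 5 arrays of Langerhans cells and of MHCIIlow macrophages lie above all untreated arrays of the same population.

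**Figure D2:**
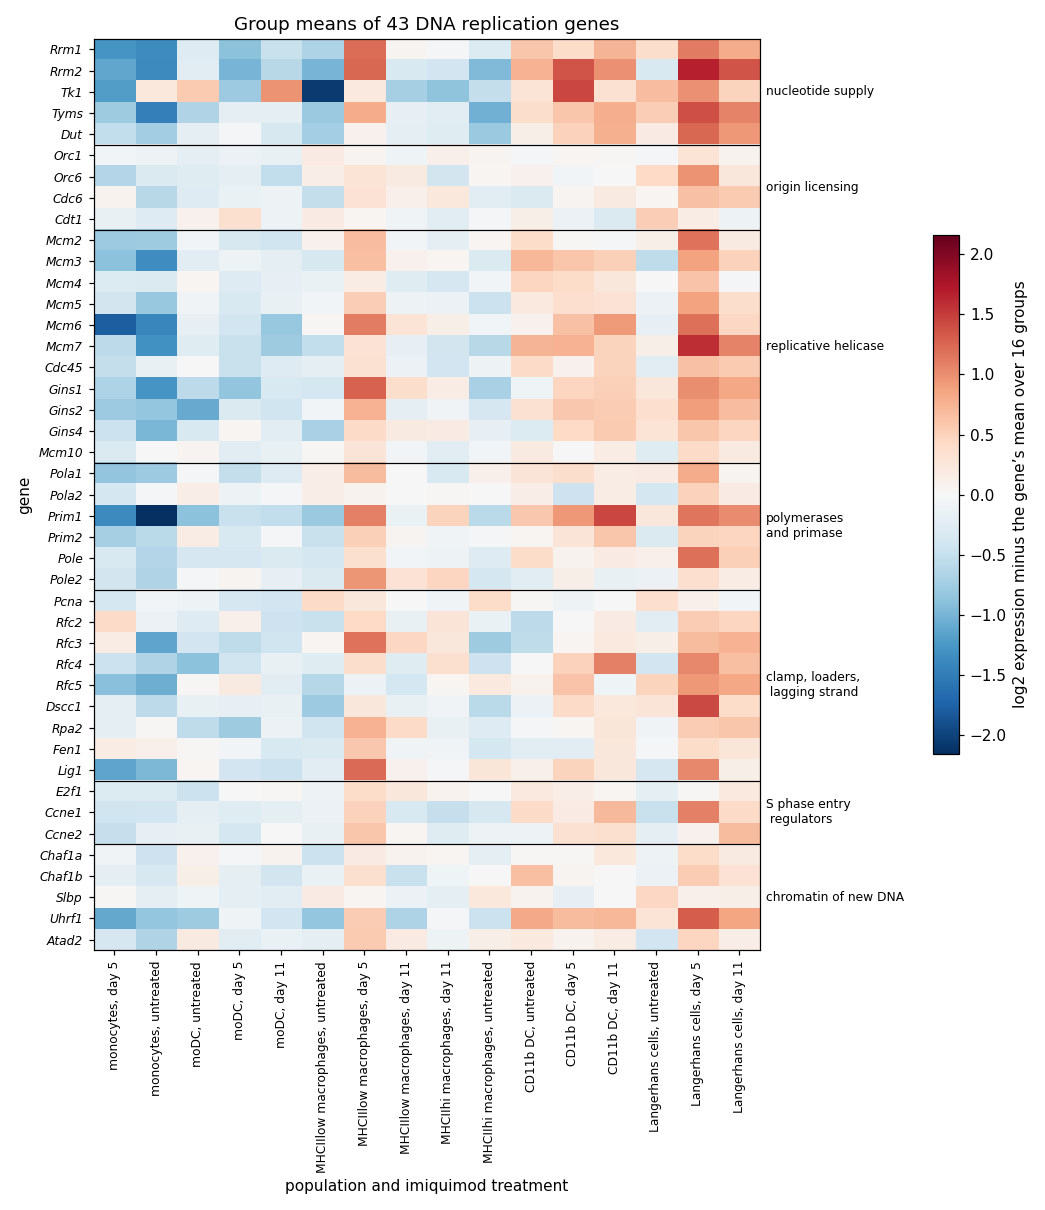
Group means of all 43 genes, the untested Orc1 included (rows, by role), in the 16 groups (columns), as log2 difference from the gene's mean over the groups, with the colour scale running over the largest difference in either direction. The day 5 columns of Langerhans cells and MHCIIlow macrophages are high for most rows, and the monocyte columns are low.

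Most of the genes shared this pattern. The correlation of a gene's group means with the mean of the other members over the 16 groups had a median of 0.834 and was over 0.8 for 22 genes and over 0.5 for 35, while the median over all genes tested was -0.0516. Rrm1 followed the others most closely (r = 0.962), and Rrm2 (0.957) and Mcm5 (0.951) came next. Cdt1 (0.085), Pcna (0.241) and Slbp (0.257) followed it least. These correlations describe 16 groups that share populations and treatments. Pcna, the sliding clamp, lay between 9.86 and 11.1 on all 48 arrays. Its day 5 Langerhans cell arrays had 10.72, 10.72 and 10.73, against 11.05, 11.00 and 10.89 untreated. The day 5 values were all below the untreated ones, but the change of -0.25 ± 0.17 (SE) did not pass the test (limma adjusted p = 0.392), and its other probe set gave -0.28 (adjusted p = 0.337). Cdt1, which brings the helicase ring to the origin and is degraded in S phase, had its highest mean in untreated Langerhans cells, at 6.17. Slbp, the binder of histone messenger RNA, was also highest there, at 7.19.

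On day 5 of imiquimod, 20 of the 42 replication genes rose in Langerhans cells and none fell. A gene is called here when limma's adjusted p, corrected over all 15591 genes of the comparison, is under 0.05. Over all genes 8.64% were called higher and 7.49% lower. The median change of the 42 genes was 0.76 on the log2 scale, against 0.02 over all genes. For 29 genes all 3 day 5 arrays lay above all 3 untreated ones, which was so for 19.9% of all genes. Leaving out each array in turn gave 14 to 20 called genes.

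Nucleotide supply rose in day 5 Langerhans cells for 3 of 5 genes. Rrm2, the small subunit of ribonucleotide reductase and the one that limits the enzyme in S phase, had 7.21, 6.43 and 7.02 on day 5, against 5.46, 4.75 and 4.43 untreated. The groups did not overlap, and the change of 2.01 ± 0.38 (SE) was 4.02-fold (limma adjusted p = 0.000127). Dut, the dUTPase that keeps uracil out of DNA, rose by 1.06 ± 0.26, and Tyms, the thymidylate synthase, by 0.87 ± 0.26. Rrm1, the large reductase subunit, changed by 0.75 ± 0.35 and did not pass the test (adjusted p = 0.159). Tk1 changed by 0.32, and by 0.87 with its other probe set (limma adjusted p = 0.793 and 0.0725), so neither passed.

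The helicase contributed 7 of its 11 genes. Mcm7 had 7.08, 7.15 and 7.24 on day 5, against 5.76, 6.02 and 5.28 untreated, a change of 1.47 ± 0.28 (adjusted p = 0.000144). Mcm2 was the tightest, with 6.90, 6.81 and 6.82 on day 5, against 5.72, 5.81 and 5.82 untreated. That was a 2.09-fold rise with no overlap (adjusted p = 0.00289). Mcm3 rose by 1.42 ± 0.30, Mcm6 by 1.37 ± 0.31 and Mcm5 by 1.00 ± 0.24, so that 5 of the 6 subunits of the ring were called. Mcm4, the remaining subunit, changed by 0.61 and was not called. Cdc45 and Mcm10, which act when the helicase is switched on, rose by 0.86 ± 0.22 and 0.68 ± 0.17. None of the GINS genes Gins1, Gins2 and Gins4 passed the test here. Of the licensing genes, Cdc6 rose by 0.58 ± 0.19, while Orc6 and Cdt1 were not called and Orc1 stayed dim, with 3.88, 3.27 and 3.50 on day 5, against 3.19, 3.19 and 3.20 untreated.

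Among the synthesis genes, Pole, the catalytic subunit of the leading-strand polymerase, had 5.35, 5.69 and 5.24 on day 5, against 4.57, 4.25 and 4.27 untreated. Its change of 1.07 ± 0.16 had the lowest adjusted p of the 42 genes (2.51e-06). Pola2, the accessory subunit of polymerase alpha, rose by 0.89 ± 0.29, and the primase genes Prim1 and Prim2 were not called. Lig1, the ligase that seals Okazaki fragments, had 6.59, 7.04 and 6.68, against 5.63, 5.26 and 5.19 untreated. It rose 2.66-fold with no overlap (adjusted p = 2.08e-05). The clamp loader genes Rfc4 and Rfc2 rose by 1.46 ± 0.38 and 0.78 ± 0.24, and Dscc1, part of the loader that serves cohesion, by 1.14 ± 0.28. Dscc1 was above the filter level on only 14 of 48 arrays.

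Ccne1, the cyclin E that drives the start of S phase, had 6.04, 6.15 and 5.71 on day 5, against 4.57, 4.13 and 4.48 untreated. The rise of 1.57 ± 0.24 was 2.96-fold (adjusted p = 3.64e-06). Its paralogue Ccne2 changed by 0.31 and E2f1, the transcription factor, by 0.23, neither called. Uhrf1, which brings the maintenance DNA methyltransferase to new DNA, rose by 1.01 ± 0.32 and Atad2, a chromatin ATPase, by 0.87 ± 0.18. The chromatin assembly genes Chaf1a and Chaf1b were not called.

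**Figure D3:**
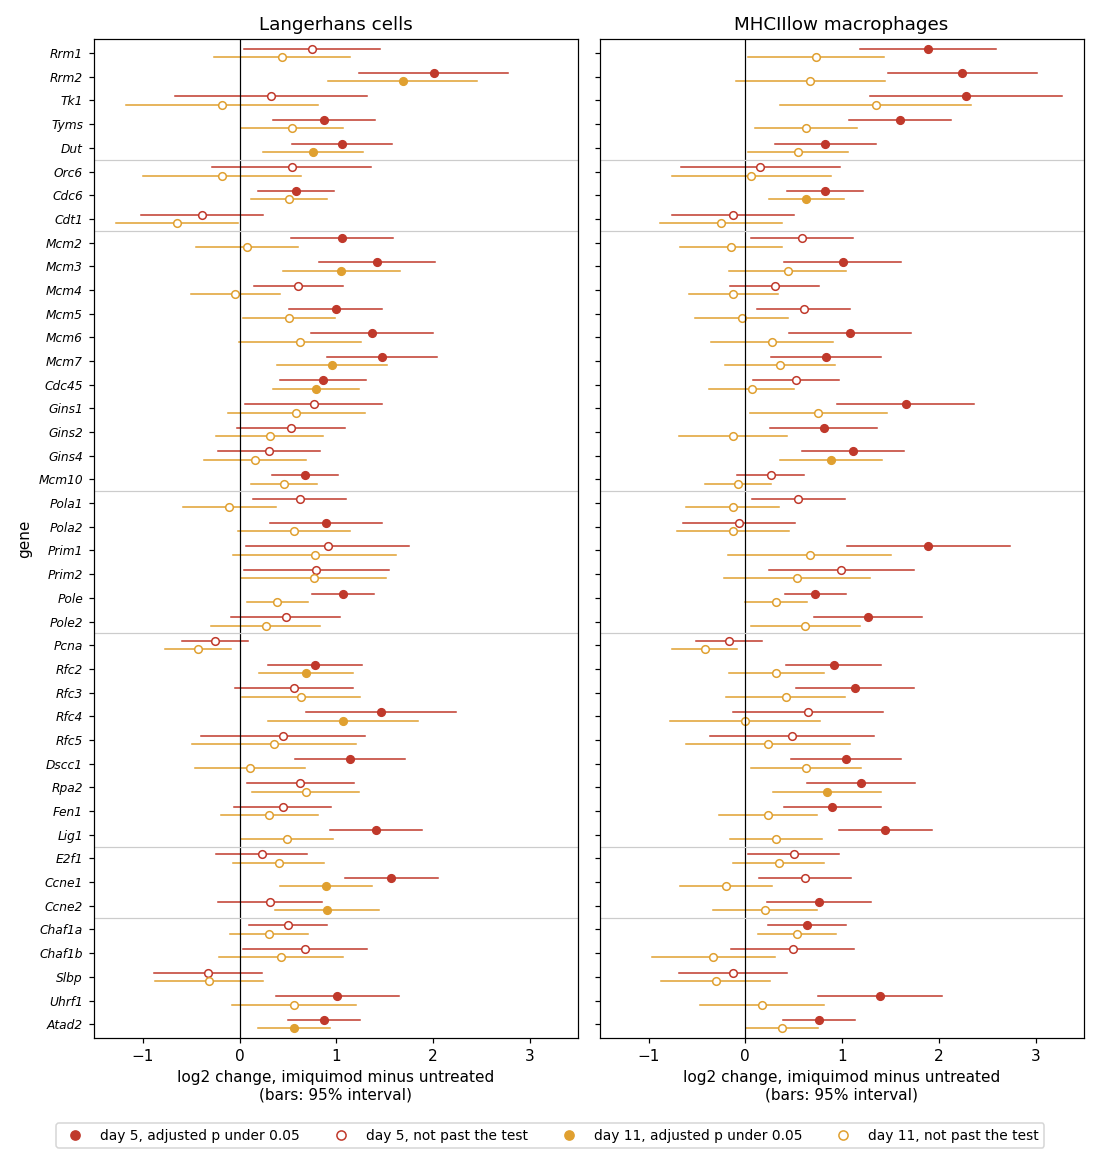
Log2 change under imiquimod minus untreated for each of the 42 tested genes, in Langerhans cells (left panel) and MHCIIlow macrophages (right panel), with 95% intervals. Filled points passed the test; day 5 in Langerhans cells holds 20 filled points and day 5 in macrophages 25, against 10 and 3 on day 11.

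By day 11 of imiquimod, 10 replication genes were higher than in untreated Langerhans cells and none was lower (9.31% and 8.40% of all genes). They were Rrm2, Dut, Mcm3, Mcm7, Cdc45, Rfc2, Rfc4, Ccne1, Ccne2 and Atad2, and the median change of the 42 genes was 0.50. Rrm2 had 6.10, 6.70 and 6.89 on day 11, all above the untreated arrays, a change of 1.69 ± 0.38 (adjusted p = 0.00112). Ccne2 was called on day 11 and not on day 5: it had 5.31, 5.42 and 5.15, against 4.53, 4.34 and 4.31 untreated (adjusted p = 0.0135). The groups did not overlap, but the difference of day 11 from day 5 was not called. The day 11 count depended on single arrays, with 6 genes without untreated array 2, 4 without untreated array 3, 5 without day 11 array 2 and 6 without day 11 array 3.

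Set against day 5 itself, day 11 was lower for 4 genes and higher for none in Langerhans cells (1.54% and 0.577% of all genes). Mcm2 was at 5.75, 5.87 and 5.95 on day 11, below all day 5 arrays and close to the untreated values, and fell by 0.99 ± 0.26 (adjusted p = 0.0326). Lig1 fell by 0.92 ± 0.24 to 5.97, 5.97 and 5.62. Pole fell by 0.68 ± 0.16 and Dscc1 by 1.03 ± 0.28. The change was negative for 37 of the 42 genes, with a median of -0.28. The 4 calls became 1 in a fit of these groups alone and 7 with array weights. There were 2 without day 5 array 2 or day 11 array 1, 1 without day 5 array 3, day 5 array 4 or day 11 array 3, and 0 without day 11 array 2.

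Markers of other cells moved with these groups. Of 15 keratinocyte genes, 10 were lower and none was higher in day 5 Langerhans cells, and their mean ranged from 7.82 to 8.61 on day 5, against 9.98 to 10.25 untreated. Of 2 tested monocyte genes, the chemokine receptor gene Ccr2 was higher (6.32 to 8.09 on day 5, against 3.36 to 3.68 untreated), and Itgam, the CD11b gene, was not called (7.30 to 7.51, against 7.66 to 8.32). Of 5 macrophage genes, 2 were higher and 1 was lower (means of 7.39 to 7.99, against 6.58 to 6.82). Between day 11 and day 5, 3 of these 5 were lower on day 11 (6.65 to 7.28). In the day 5 cells, 4 of 8 tested neutrophil genes were higher (means of 5.64 to 6.09, against 3.63 to 3.88). Of 6 conventional dendritic cell genes, 4 were higher (8.00 to 8.11, against 6.83 to 6.96), and of 7 fibroblast genes 3 (5.49 to 6.58, against 4.38 to 5.22). Of 7 T cell and 5 mast cell genes, 1 each was higher, and no B cell or endothelial gene was called. None of the 4 Langerhans cell markers was called (10.36 to 10.45, against 10.43 to 10.51). The part of these cells in the replication gene changes was not tested.

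MHCIIlow macrophages responded on day 5 with 25 of the 42 replication genes higher and none lower (7.22% and 6.95% of all genes), with a median change of 0.82 against -0.02 over all genes. No other dermal population had more than 3 called genes. For 31 genes the day 5 arrays lay above the untreated ones, which held for 16.6% of all genes. Leaving out each array gave 17 to 24 called genes.

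All 5 genes of nucleotide supply rose in these macrophages. Rrm1 had 8.06, 8.41 and 8.10 on day 5, against 6.77, 6.06 and 6.07 untreated, 3.71-fold higher (adjusted p = 0.000184). Rrm2 had 6.52, 6.23 and 6.62, against 4.43, 3.65 and 4.56, 4.73-fold higher (adjusted p = 6.57e-05). Tk1, the thymidine kinase that salvages thymidine, had 7.78, 7.87 and 8.47, against 5.42, 5.49 and 6.38. Neither these genes' groups nor those of Tyms overlapped. Tk1 rose by 2.28 ± 0.49, and its other probe set by 2.13 ± 0.33. Tyms rose by 1.60 ± 0.26 and Dut by 0.83 ± 0.26.

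In the helicase, all 3 GINS genes measured rose: Gins1 by 1.66 ± 0.35, Gins4 by 1.11 ± 0.26 and Gins2 by 0.81 ± 0.27. Gins2 had 7.63, 7.61 and 7.78 on day 5, against 6.86, 6.96 and 6.77 untreated, without overlap. Mcm3, Mcm6 and Mcm7 rose by 1.01, 1.08 and 0.83, and Mcm2, Mcm4, Mcm5, Cdc45 and Mcm10 were not called. Cdc6 rose by 0.82 ± 0.19, with 5.05, 5.14 and 5.04, against 3.98, 4.24 and 4.53.

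Prim1, the catalytic primase subunit that lays RNA primers, had 6.77, 6.77 and 6.64 on day 5, against 5.24, 4.81 and 4.46 untreated, 3.71-fold higher (adjusted p = 0.00144). Pole2 and Pole, subunits of the leading-strand polymerase, rose by 1.27 ± 0.28 and 0.72 ± 0.16. Pole2 was above the filter level on only 23 of 48 arrays. Lig1 had 7.15, 6.72 and 6.99, against 5.48, 5.43 and 5.60, 2.73-fold higher (adjusted p = 4.24e-05). Fen1, the nuclease that trims primer flaps, rose by 0.90 ± 0.25, and Rpa2, part of the protein that coats unwound DNA, by 1.19 ± 0.27. The loader genes Rfc2, Rfc3 and Dscc1 rose by 0.91, 1.13 and 1.04. Dscc1 averaged 2.80 in the untreated macrophages, under the filter level, and was above that level on only 14 of 48 arrays. Uhrf1 had 5.89, 6.20 and 6.16, against 4.28, 4.86 and 4.93, and Chaf1a had 5.28, 5.48 and 5.47, against 4.80, 4.75 and 4.77. These were rises of 1.40 ± 0.32 and 0.64 ± 0.20, each without overlap. Ccne2 rose by 0.76 ± 0.26 and Atad2 by 0.76 ± 0.18, while Ccne1 changed by 0.62 and was not called (adjusted p = 0.0769).

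On day 11, few of these genes were above untreated macrophages. In that comparison only Cdc6 (0.63), Gins4 (0.89) and Rpa2 (0.84) were called, all higher (4.33% of all genes were higher and 5.39% lower). This count was 1 without untreated array 2 or 4 or day 11 array 1 or 3, and 0 without day 11 array 2, and 6 with array weights. Against day 5, the day 11 change was negative for each of the 42 genes, with a median of -0.56. Day 11 lay below day 5 without overlap for 28 genes, against 8.22% of all genes. Of the 42 genes, 2 were called lower and none higher (0.398% and 0.0834% of all genes were called lower and higher), and 22 had an unadjusted p under 0.05. Rrm2 had 4.91, 4.74 and 5.00 on day 11 and fell by 1.57 ± 0.38 (adjusted p = 0.0431), and Lig1 had 5.51, 6.16 and 5.79 and fell by 1.13 ± 0.24 (adjusted p = 0.0115). Both calls were lost without day 5 array 2 or 4 or day 11 array 1, and 1 gene was called without day 5 array 3 or day 11 array 2 or 3. A fit of these groups alone called 5, and array weights gave 10.

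**Figure D4:**
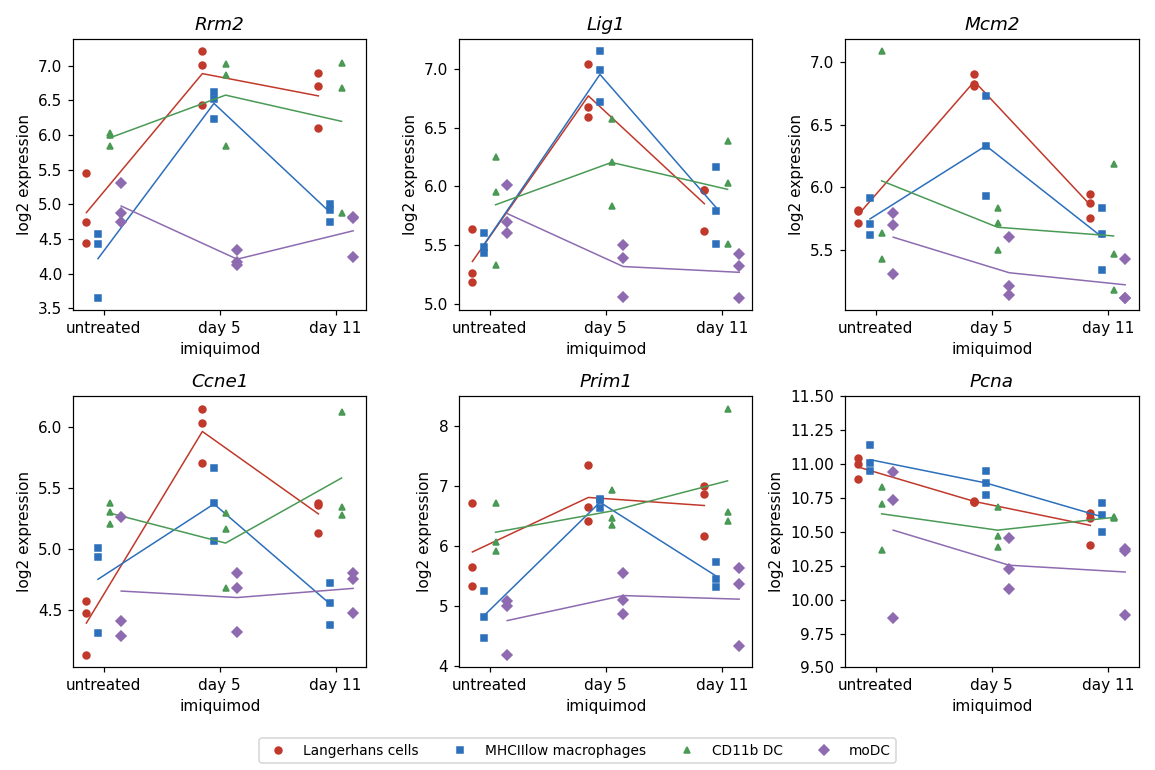
Log2 expression of Rrm2, Lig1, Mcm2, Ccne1, Prim1 and Pcna (vertical axes) in untreated, day 5 and day 11 cells (horizontal axes) of 4 populations. Points are arrays and lines join group means; Rrm2 stays high on day 11 in Langerhans cells and returns towards the untreated level in MHCIIlow macrophages.

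The 5 macrophage markers averaged 10.28 in day 5 MHCIIlow macrophages, against 10.43 untreated; 1 was higher and 1 lower. Of the 2 monocyte genes, Ccr2 was lower on day 5 (5.74 to 6.24, against 7.10 to 8.24 untreated) and Itgam was higher (10.07 to 10.28, against 9.30 to 9.63). None of 15 keratinocyte genes was higher and 7 were lower, with means of 6.03 to 6.41 on day 5, against 6.75 to 7.48. Of 8 neutrophil genes, 3 were higher (5.66 to 5.94, against 4.08 to 4.46), and on day 11 their mean was 5.55 to 5.80. Of 5 mast cell genes, 2 were lower and none was higher (4.82 to 5.47, against 5.55 to 7.50 untreated), and 1 of 7 fibroblast genes was lower (5.50 to 5.83, against 6.55 to 7.01). The part of these cells was not tested. The titles' first letter, which the labels do not explain, was B for all untreated, F for all day 5 and G for all day 11 dermal arrays, so letter and treatment cannot be told apart there. Untreated and day 5 Langerhans cells share the letter F, and their 20 calls stand within it, while the day 11 Langerhans arrays carry G.

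The day 5 responses of Langerhans cells and MHCIIlow macrophages, which share no arrays, had 13 called genes in common, 65.0% of the Langerhans cell calls and 52.0% of the macrophage calls. These were Rrm2, Tyms, Dut, Cdc6, Mcm3, Mcm6, Mcm7, Pole, Rfc2, Dscc1, Lig1, Uhrf1 and Atad2. Of all 42 genes, 59.5% were called higher in the macrophages and 47.6% in Langerhans cells. The shares of calls in common lie close to these, so the overlap by itself shows no tie between the 2 sets of calls. Over the 42 genes the changes had a correlation of 0.427, given as a description. Mcm2, Mcm5, Cdc45, Mcm10, Pola2, Rfc4 and Ccne1 were called in Langerhans cells alone, and 12 genes in macrophages alone, among them Rrm1, Tk1, Prim1 and the 3 GINS genes. The difference of the responses, a comparison chosen after seeing the data, was called for none of the 42 genes on day 5 (4.66% of all genes were higher and 4.25% lower in the Langerhans cell response), with 5 at an unadjusted p under 0.05. The 95% interval of the difference, Langerhans cell minus macrophage response, was 0.27 to 1.63 for Ccne1 (limma adjusted p = 0.0696), -3.36 to -0.55 for Tk1 (0.0717) and -2.13 to -0.15 for Rrm1 (0.166). For Tk1 the difference was -1.95, and -1.27 with its other probe set (limma adjusted p = 0.0884). The count was 1 without untreated macrophage array 1 or 4, 3 in a fit of these groups alone and 2 with array weights. On day 11, 1 gene was called, Ccne1, at 1.09 ± 0.33 (4.01% of all genes higher, 3.92% lower), and none without untreated macrophage array 2 or 4, day 11 macrophage array 1 or 2, untreated Langerhans cell array 2 or day 11 Langerhans cell array 3.

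Set against the mean response of the dermal populations, the day 5 response of Langerhans cells was larger for 13 genes and smaller for none (7.32% and 6.21% of all genes). The dermal mean took monocytes, moDC, MHCIIlow macrophages and CD11b DC. The 13 genes were Rrm2, the ring genes Mcm2, Mcm3, Mcm5, Mcm6 and Mcm7, Cdc45, Mcm10, Pola2, Pole, Lig1, Ccne1 and Atad2, and Ccne1 differed most, by 1.49 ± 0.26 (adjusted p = 7.41e-05). Without untreated Langerhans cell array 3 there were 8. Of all called genes 54.1% were larger in Langerhans cells, and 43.5% with each array centred on its median. On day 11, against moDC, both macrophage groups and CD11b DC, 6 genes were larger and none smaller (6.82% and 5.57% of all genes): Rrm2, Mcm7, Cdc45, Mcm10, Ccne1 and Atad2. That count was 2 without untreated Langerhans cell array 2, 3 without its array 3 or day 11 array 1, and 1 without day 11 array 2 or 3.

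Within the dermis, the day 5 response of MHCIIlow macrophages exceeded the mean response of monocytes, moDC and CD11b DC for 10 genes and fell short for none (1.18% and 1.15% of all genes). This comparison was also chosen after seeing the data. The genes were Rrm1, Rrm2, Tk1, Tyms, Cdc45, Pole, Rpa2, Lig1, Uhrf1 and Atad2. Tk1 differed by 2.82 ± 0.56 (adjusted p = 0.00248), and by 2.21 with its other probe set. Lig1 differed by 1.53 ± 0.27, with the lowest adjusted p of the 42 (0.000631). Without day 5 macrophage array 4, or with quantile normalisation, there were 6. Of all called genes, 50.5% were larger in these macrophages, and 35.6% with median-centred arrays.

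In CD11b DC none of the 42 replication genes was called on day 5 (3.01% of all genes higher and 4.96% lower), with changes of -0.59 to 1.14 and 4 genes at an unadjusted p under 0.05. Without untreated array 2 or 4 there was 1. Rrm2 had 7.03, 6.86 and 5.84 on day 5, against 5.84 to 6.04 untreated, with overlap. On day 11, 2 genes rose and none fell (3.55% and 6.79% of all genes). The share that rose, 4.76% of the 42 genes, lay close to that over all genes. Gins4 had 7.79, 8.27 and 7.93, against 7.22, 7.55 and 6.67 untreated, without overlap, and rose by 0.85 ± 0.26 (adjusted p = 0.0301). Rfc2 had 6.03, 6.68 and 5.94, against 5.35, 5.10 and 5.95, overlapping by 1 array, and rose by 0.75 ± 0.24. Neither was called in a fit of these groups alone, with array weights, or without untreated array 1 or day 11 array 2, and 1 was without untreated array 2. Between day 11 and day 5 none was called (0.257% and 0.706% of all genes higher and lower), with 3 at an unadjusted p under 0.05. Of all genes called on day 5, 37.8% were higher, and 51.1% with median-centred arrays. Epcam, a Langerhans cell marker, ranged from 7.04 to 7.07 in day 5 CD11b DC, against 4.31 to 4.60 untreated, and 2 of the 4 Langerhans cell markers were higher. Of 15 keratinocyte genes 7 were lower on day 5 and none was higher (means of 5.27 to 5.65, against 6.50 to 6.85 untreated). Of 8 neutrophil genes 4 were higher (4.99 to 5.81, against 3.89 to 4.01), and of 7 T cell genes 2. Of 5 macrophage genes 1 was higher and 1 lower. The part of these cells was not tested.

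In moDC none of the genes was called on day 5 (5.68% of all genes higher, 5.61% lower) or on day 11 (2.58% and 5.84%), with 5 and 4 at an unadjusted p under 0.05, or between day 11 and day 5 (0.148% and 0.866%), with 3. The median change was -0.14 on day 5 and -0.15 on day 11. Rrm2 had 4.16, 4.34 and 4.12 on day 5, all below the untreated 5.31, 4.74 and 4.87. Without untreated array 4, 1 gene was called lower at either day, and without day 5 array 4, 1 on day 5. Tk1 had 7.19, 7.20 and 6.75 on day 5, against 8.10, 8.15 and 8.92, a change of -1.34 that its other probe set (0.20) did not share. On day 11 that other probe set gave 1.08 (adjusted p = 0.0336), against 0.41 for the brighter one. Of all genes called, 50.3% were higher on day 5 and 30.7% on day 11. With quantile normalisation these shares were 60.7% and 40.8%, and with median-centred arrays 68.7% and 53.6%. Of 15 keratinocyte genes 6 were lower on day 5 (means of 6.18 to 7.42, against 7.24 to 7.91 untreated), and of 7 fibroblast genes 3 (5.83 to 7.33, against 8.38 to 8.68). Of 8 neutrophil genes 4 were higher (6.51 to 6.66, against 4.53 to 4.99), and of 7 T cell genes 2. The part of these cells was not tested.

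In monocytes, 2 genes rose and 1 fell on day 5 (4.76% and 2.38% of the 42 genes, against 6.43% and 6.31% of all genes). Neither share exceeded that over all genes. Rfc3, a clamp loader subunit, had 5.52, 5.92 and 6.59 on day 5, against 5.44, 4.61 and 4.06 untreated, 2.47-fold higher (adjusted p = 0.0035). Cdc6 had 4.71, 4.89 and 4.92, against 4.00, 4.16 and 4.32, and rose by 0.68 ± 0.19. Neither overlapped. Tk1 had 8.00, 6.42 and 5.44, against 8.53, 7.56 and 8.07, and fell by 1.43 ± 0.49, but its other probe set gave -0.19 (adjusted p = 0.762). No gene was called in a fit of these groups alone or with array weights, 6 were with quantile normalisation, and 1 was without untreated array 1, day 5 array 3 or day 5 array 4. Of all called genes 50.5% were higher, 64.1% with quantile normalisation and 65.2% with median-centred arrays. Untreated monocyte arrays 1 and 2 were closest to untreated moDC arrays. Of 15 keratinocyte genes 4 were lower on day 5 (means of 5.45 to 7.01, against 6.69 to 7.56 untreated), and of 7 fibroblast genes 3 (7.30 to 7.39, against 6.83 to 10.37). Of 8 neutrophil genes 4 were higher (6.22 to 6.94, against 5.18 to 5.34), and of 5 macrophage genes 2. The part of these cells was not tested. In MHCIIhi macrophages, 3 of the 42 genes were higher on day 11 and none was lower (7.45% and 7.49% of all genes). The share that was higher did not exceed that over all genes. Rfc3 had 6.13, 5.87 and 6.26, against 4.88, 5.49 and 4.87 untreated, and rose by 1.01 ± 0.30 (adjusted p = 0.0196). Tyms and Pole2 rose by 0.79 and 0.84, with overlapping groups. The count was 1 in a fit of these groups alone and without untreated array 1 or day 11 array 2, and 0 without untreated array 4 or day 11 array 3.

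The populations already differed before treatment. Untreated moDC were higher than untreated monocytes in 5 replication genes and lower in none (2.16% and 1.27% of all genes): Mcm3, Mcm6, Mcm7, Lig1 and Atad2. Lig1 had 5.60, 5.70 and 6.01 in moDC, against 5.03, 4.56 and 4.64 in monocytes, and differed by 1.02 ± 0.24 (adjusted p = 0.00691). No gene was called in a fit of these groups alone or with array weights. The count was 2 without monocyte array 4 or moDC array 1 and 3 without moDC array 4. Monocyte arrays 1 and 2 were closest to untreated moDC arrays and not to their own group. The 7 fibroblast genes averaged 6.83, 10.37 and 7.77 on the monocyte arrays, against 8.38 to 8.68 in moDC, and their part was not tested. CD11b DC were higher than moDC in 6 and lower in none (1.92% and 1.65%): Tyms, Mcm7, Gins2, Prim1, Pole and Uhrf1. Gins2 had 6.93, 7.46 and 7.40 in CD11b DC, against 5.94, 6.13 and 5.47 in moDC, and Uhrf1 had 6.42, 5.72 and 6.91, against 4.67, 4.78 and 4.85. Neither overlapped, and the differences were 1.41 ± 0.27 and 1.58 ± 0.32. A fit of these groups alone called 1, and without moDC array 4 or CD11b DC array 2 there were 3.

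Untreated Langerhans cells were lower than untreated CD11b DC in 6 of the 42 genes and higher in none (11.9% and 11.2% of all genes). The share that was lower lay close to that over all genes, so this count does not set the replication genes apart. Mcm3 had 5.52, 5.10 and 4.67 in Langerhans cells, against 6.34, 6.49 and 6.23 in CD11b DC, without overlap, and differed by -1.26 ± 0.30 (adjusted p = 0.00135). Rrm2, Cdc45, Mcm10, Ccne1 and Atad2 were the others, and without CD11b DC array 1 there were 3. The 15 keratinocyte genes averaged 10.12 in these Langerhans cells, against 6.64 in these CD11b DC, and their part was not tested. The titles' first letter was F for the Langerhans cells and B for the CD11b DC. Letter, skin layer and population therefore cannot be told apart here. MHCIIhi and MHCIIlow macrophages differed in none (0.552% and 0.346% of all genes higher and lower), with 2 at an unadjusted p under 0.05, and 1 was called without MHCIIhi array 1.

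Further replication genes also rose on day 5. Of a list of 46 further genes, 42 were tested, of which 13 rose in Langerhans cells and 9 in MHCIIlow macrophages, with none lower and medians of 0.49 and 0.45. Over all genes 8.64% were higher in that Langerhans cell comparison and 7.22% in that macrophage comparison. Ccna2, the cyclin A of S phase and mitosis, rose by 2.37 ± 0.44 in Langerhans cells and by 1.65 ± 0.44 in macrophages. Dbf4, the activator of the kinase that fires origins, rose by 0.93 ± 0.30 in Langerhans cells (adjusted p = 0.0278) and was at 0.52 in macrophages (0.29). Dtymk, the thymidylate kinase, rose by 1.82 ± 0.32 in macrophages and was at 0.74 in Langerhans cells, not called.

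Of 34 tested mitosis genes, which act after S phase, 32 rose on day 5 in Langerhans cells, with a median of 1.64, and 32 in MHCIIlow macrophages, with a median of 1.39. None was lower, against 8.64% of all genes higher in Langerhans cells and 7.22% in macrophages. Against untreated cells 27 were still higher on day 11 in Langerhans cells and 4 in macrophages, where 2 were lower (9.31% of all genes higher in Langerhans cells, and 4.33% higher and 5.39% lower in macrophages). From day 5 to day 11, 20 of the 34 fell in macrophages and 3 in Langerhans cells (0.398% and 1.54% of all genes). Mki67, a marker of cycling cells, rose by 1.68 ± 0.30 in day 5 Langerhans cells but changed by 0.33 ± 0.30 in day 5 macrophages (adjusted p = 0.543). In those macrophages it ranged from 7.53 to 7.77, against 6.56 to 7.96 untreated. Top2a, the topoisomerase of dividing cells, rose there by 1.39 ± 0.30.

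Across the whole set, arrays of a group correlated at 0.926 to 0.988, and 43 of the 48 arrays were closest to an array of their own group. Untreated monocyte arrays 1 and 2 were closest to untreated moDC. Day 11 moDC array 1 was closest to day 5 moDC, and day 11 CD11b DC array 3 to day 5 CD11b DC. Untreated MHCIIlow macrophage array 4 was closest to untreated MHCIIhi macrophages. Array medians lay between 5.02 and 5.26, and neither rescaling moved the median change over all genes by 0.1 or more in any comparison.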

How the data were processed

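RNA of sorted ear skin phagocytes was hybridised to 48 Affymetrix mouse gene arrays, 3 for each of 16 groups. The deposited table holds log2 values for 35556 probe sets. The submitters' processing notes name RMA, oligo and limma, without versions; RMA corrects background, normalises by quantiles and summarises probe sets, and pulls array distributions together. A value table of the same arrays held identical values, and the authors' shorter log2 table holds 5958 probe sets, 21 of the 43 replication genes among them. The values were used as deposited.

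Probe sets were named from the platform annotation: 21789 had 1 symbol, 1621 several and 12146 none. The brightest probe set over all arrays stood for a gene, and a gene needed 3 or more arrays over 3.77, the 40th percentile of the table, which left 15591. A model with a mean per group was fitted to all 48 arrays with limma 3.58.1 (lmFit, eBayes) in R 4.3.3, two-sided, with Benjamini-Hochberg adjustment over all genes within each comparison. Tested on simulated data for the day 5 Langerhans cell comparison over 15591 genes, it called 25.4% of changes of 0.5, 58.2% of changes of 1 and 97% of changes of 2 on the log2 scale, with 8 false calls of 128. Only 200 genes were changed in the simulation, while 2514 were called in the real comparison. The adjustment depends on that share, so these rates need not hold for the real data. Only 3 arrays per group limit the precision.

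The 43 genes, the gene and marker lists and the comparisons were chosen with earlier results of these data known. Any of the 43 could be named, and of other lists up to 4 called genes with the largest change per comparison, with a short panel (Mki67, Top2a, Cdkn1a, Samhd1, E2f7, E2f8, Dbf4, Ccna2, Ccnd1, Csf1r). Markers used for sorting (Ccr2, Cd24a, Fcgr1, MHC class II) were not read as findings between the sorts. Alternatives were other normalisations, filters, probe set rules, array weights, replicate blocks, smaller fits and leaving out arrays. Replicate numbers of the titles were not used to pair the samples in the fit. Most comparisons had only 2 pairs of equal number, too few to decide whether the numbers pair samples. With group means removed, 17 of 100 pairs of arrays with the same title letter and number correlated over 0.1 (median 0.0419). Among pairs that shared neither, 28 of 590 did (median -0.001). Promoter windows are RefSeq's (GRCm38.p6). Day 5 MHCIIhi macrophages and day 11 monocytes were not analysed here.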

Additional observations from a re-analysis of the deposited data

Results flagged for a closer look

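The response to imiquimod, taken as treated minus untreated, differed between populations for the following replication genes by limma's test of the difference itself, with adjusted p under 0.05 over all genes. Each value is the log2 difference of the responses. In Langerhans cells against the mean of the 4 dermal populations on day 5, it was 1.42 for Rrm2, 1.08 for Mcm2, 1.05 for Mcm3, 0.77 for Mcm5, 1.12 for Mcm6 and 1.13 for Mcm7. It was 1.02 for Cdc45, 0.81 for Mcm10, 1.20 for Pola2 and 0.89 for Pole. It was 1.11 for Lig1, 1.49 for Ccne1 and 0.76 for Atad2. On day 11 the dermal mean took moDC, both macrophage groups and CD11b DC. The difference was then 1.41 for Rrm2, 1.01 for Mcm7, 0.91 for Cdc45, 0.58 for Mcm10, 0.90 for Ccne1 and 0.63 for Atad2.

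Against MHCIIlow macrophages alone, the day 11 response of Langerhans cells was larger for Ccne1, by 1.09. In MHCIIlow macrophages against monocytes, moDC and CD11b DC on day 5, the difference was 2.13 for Rrm1, 2.21 for Rrm2, 2.82 for Tk1 and 1.15 for Tyms, all of nucleotide supply. It was 0.90 for Cdc45, 0.73 for Pole, 1.32 for Rpa2, 1.53 for Lig1, 1.31 for Uhrf1 and 0.86 for Atad2. The dermal populations carry title letters that change with treatment, and Langerhans cells change from F untreated to G on day 11. Letter and treatment therefore cannot be told apart in these values.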

How the results depend on the processing

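The day 5 counts of 20 genes in Langerhans cells and 25 in MHCIIlow macrophages stayed within 1.5 times under every rescaling, filter, probe set rule, block, weighting and smaller fit, as did the counts for day 11 Langerhans cells, for untreated Langerhans cells against CD11b DC and for both differences from the dermal mean. Of 119 called gene changes and 2423 recomputed values, 2049 kept direction and call, 374 kept the direction without the call and 0 reversed, and 88 changes kept the call under all but the smaller fits and omitted arrays.

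Counts of called genes moved as follows. With quantile normalisation there was 1 for day 5 CD11b DC, 1 for day 5 moDC, 6 for day 5 monocytes (3 as reported) and 6 for day 5 MHCIIlow macrophages against other dermal cells (10). With median-centred arrays there was 1 for day 5 CD11b DC and 1 for day 5 moDC. With only the compared groups in the fit, counts were 0 for day 11 CD11b DC (2), 1 for day 5 moDC, 0 for day 5 monocytes, 1 for day 11 MHCIIhi macrophages (3), 1 for day 11 against day 5 Langerhans cells (4), 5 for day 11 against day 5 MHCIIlow macrophages (2), 0 for untreated moDC against monocytes (5), 1 for CD11b DC against moDC (6) and 3 for the day 5 Langerhans cell minus macrophage response (0). Array weights gave 3 for day 5 CD11b DC, 0 for day 11 CD11b DC, 0 for day 5 monocytes, 6 for day 11 MHCIIlow macrophages (3), 7 and 10 for day 11 against day 5 in Langerhans cells and in MHCIIlow macrophages, 1 for day 11 against day 5 moDC, 0 for untreated moDC against monocytes, and 2 for the Langerhans cell minus macrophage response on either day. Averaging probe sets gave 1 for day 11 against day 5 moDC and 1 for the day 5 Langerhans cell minus macrophage response, and no filter gave 1 for day 11 against day 5 MHCIIlow macrophages. With the replicate block, the counts were 1 for day 11 MHCIIhi macrophages, 1 for day 11 against day 5 moDC, 4 for day 11 against day 5 MHCIIlow macrophages and 1 for the day 5 Langerhans cell minus macrophage response; the samples share only a number, and every other count stayed within 1.5 times. A random block had a consensus correlation of 0.034. The causes were not tested.

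Leaving out 1 array at a time gave 14 to 20 genes for day 5 and 4 to 11 for day 11 Langerhans cells, 0 to 1 and 0 to 3 for CD11b DC on days 5 and 11, 0 to 1 for moDC on either day, 1 to 3 for monocytes, 17 to 24 and 0 to 2 for MHCIIlow macrophages and 0 to 4 for MHCIIhi macrophages. Day 11 against day 5 gave 0 to 2 in Langerhans cells, 0 to 1 in MHCIIlow macrophages and 0 in CD11b DC and moDC. Untreated comparisons gave 2 to 6 (moDC against monocytes), 0 to 1 (macrophages), 3 to 7 (CD11b DC against moDC) and 3 to 6 (Langerhans cells against CD11b DC). Response differences gave 8 to 13 and 1 to 8 against the dermal mean, 0 to 1 on both days against MHCIIlow macrophages and 6 to 10 for macrophages against other dermal cells.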

Other observations

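Genes known to hold cells out of S phase moved in both directions on day 5. Of 24 tested, 5 rose and 5 fell in Langerhans cells, and 4 rose and 3 fell in MHCIIlow macrophages. Over all genes, 8.64% rose and 7.49% fell in Langerhans cells, and 7.22% rose and 6.95% fell in macrophages. Klf4, a transcription factor of quiescent myeloid cells, fell by 1.49 ± 0.22 in Langerhans cells and by 1.48 ± 0.22 in macrophages, and Tob1, an antiproliferative protein, by 1.21 ± 0.16 and 0.95 ± 0.16. Samhd1, which breaks down the nucleotides that ribonucleotide reductase supplies, rose by 1.05 ± 0.16 in Langerhans cells and was at -0.08 in macrophages. E2f7, a repressor of E2F targets, rose by 0.50 ± 0.13 and 0.47 ± 0.13. Gmnn, the inhibitor of Cdt1 made in S phase, rose by 1.23 ± 0.28 in macrophages.

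Of 17 growth signal genes, 7 rose and 2 fell in day 5 Langerhans cells and 1 rose and 4 fell in day 5 MHCIIlow macrophages, to be read against the same shares over all genes. Myc, a driver of cell growth, fell in both while the replication genes rose: by 1.78 ± 0.25 in Langerhans cells, with 9.40 to 9.70 on day 5 against 11.31 to 11.35 untreated, and by 1.69 ± 0.25 in macrophages. Ccnd2, a cyclin D, fell by 2.77 ± 0.40 in Langerhans cells, where Flt3, a receptor of dendritic cell growth, rose by 2.40 ± 0.22. Csf1r, the receptor for the macrophage growth factor, fell by 0.96 ± 0.16 in macrophages. In moDC, Mki67 fell by 2.01 on day 5 and by 2.38 on day 11, while none of the 42 replication genes was called there.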
